A study of Homo sapiens with 9 samples.

Results

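The genes described here are 10 members of the HSP70/HSP90 chaperone system of the endoplasmic reticulum (ER) lumen, HSPA5, HSP90B1, HYOU1, SDF2L1, DNAJB9, DNAJB11, DNAJC3, DNAJC10, SIL1 and CRELD2. They were taken by name from a gene expression table, each from the brightest row that names it, and they are 10 of the 17958 genes measured. Each had exactly 1 row. The cells were HCT 116, an established human colorectal cancer line, transiently transfected with 1 of 3 vectors and collected for RNA 24 hours later. The KL-FL group received a vector for mouse full-length klotho, the KL1 group a vector for the KL1 subdomain of the mouse protein, and the control group the vector pcDNA3 without klotho. Every group therefore carried a plasmid and had been through transfection, with JetPEI or polyethylenimine as reagent, a choice that is not given per sample. Each group had 3 arrays, 9 in all. Klotho is a membrane protein known as the co-receptor of FGF23, and the series title ties it to the unfolded protein response, so the question asked of these genes is whether either klotho vector moved them.

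Secretory and membrane proteins fold in the ER, where the HSP70 chaperone BiP, the product of HSPA5, binds exposed hydrophobic stretches in a cycle driven by ATP. J-domain proteins such as DNAJB9, DNAJB11, DNAJC3 and DNAJC10 deliver clients and trigger ATP hydrolysis, and the exchange factors SIL1 and HYOU1 release the ADP. HSP90B1, known as GRP94, takes over a subset of clients. When misfolded protein builds up, the transcription factors ATF6 and XBP1 raise many of these genes through ER stress response elements in their promoters.

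The sequences below show where such elements stand in the members' own promoters. The 250 bases before each start site were taken from RefSeq (GRCh38.p14), where all 10 members had an entry. They were searched on both strands for the ER stress response element (ERSE, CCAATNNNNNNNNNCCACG), for ERSE-II (ATTGGNCCACG) and for the unfolded protein response element core (UPRE core, TGACGTGG). Capitals mark every match. Shown are the 5 members that hold an ERSE or ERSE-II, at chr9:125241344-125241593 (minus strand) for HSPA5, chr12:103930160-103930409 (plus strand) for HSP90B1, chr11:119057206-119057455 (minus strand) for HYOU1, chr22:21642052-21642301 (plus strand) for SDF2L1 and chr22:49918384-49918633 (plus strand) for CRELD2, each written 5′ to 3′ along the gene.
HSPA5: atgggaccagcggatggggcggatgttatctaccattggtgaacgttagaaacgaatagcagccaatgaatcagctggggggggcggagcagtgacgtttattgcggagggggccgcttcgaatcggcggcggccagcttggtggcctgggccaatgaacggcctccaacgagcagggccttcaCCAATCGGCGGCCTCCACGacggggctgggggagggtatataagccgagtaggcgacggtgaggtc
HSP90B1: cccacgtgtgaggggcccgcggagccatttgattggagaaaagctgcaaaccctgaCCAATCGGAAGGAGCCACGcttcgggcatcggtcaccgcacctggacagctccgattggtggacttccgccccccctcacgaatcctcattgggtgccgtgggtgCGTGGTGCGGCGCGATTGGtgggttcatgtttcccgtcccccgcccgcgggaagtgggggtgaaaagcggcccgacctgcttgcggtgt
HYOU1: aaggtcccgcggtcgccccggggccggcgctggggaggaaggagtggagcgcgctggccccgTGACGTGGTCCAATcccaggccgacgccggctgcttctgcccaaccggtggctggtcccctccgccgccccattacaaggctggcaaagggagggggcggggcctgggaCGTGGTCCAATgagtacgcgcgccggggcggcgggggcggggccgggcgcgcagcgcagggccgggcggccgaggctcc
SDF2L1: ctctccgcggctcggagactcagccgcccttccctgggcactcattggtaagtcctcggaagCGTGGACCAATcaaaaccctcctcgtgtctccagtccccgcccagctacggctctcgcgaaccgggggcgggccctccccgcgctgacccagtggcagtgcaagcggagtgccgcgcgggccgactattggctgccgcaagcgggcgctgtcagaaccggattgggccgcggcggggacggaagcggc
CRELD2: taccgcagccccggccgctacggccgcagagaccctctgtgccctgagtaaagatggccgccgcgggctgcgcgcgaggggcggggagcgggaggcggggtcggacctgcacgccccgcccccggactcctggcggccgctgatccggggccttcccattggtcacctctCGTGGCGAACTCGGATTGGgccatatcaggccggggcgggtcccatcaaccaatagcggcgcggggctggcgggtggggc
HSPA5 held 1 exact ERSE match, whose first base lay 66 bases before the start. HSP90B1 held 2, with first bases 194 and 89 bases before the start, the nearer on the opposite strand. CRELD2 held 1 on the opposite strand, 80 bases before the start. HYOU1 held 2 ERSE-II matches, 185 and 79 bases before the start, and SDF2L1 held 1, 188 bases before the start, all on the opposite strand. The farther ERSE-II of HYOU1 overlapped a UPRE core that began 188 bases before the start. DNAJC10 held a UPRE core alone, 125 bases before the start on the opposite strand, and DNAJB9, DNAJB11, DNAJC3 and SIL1 held none of the 3 letter strings in this window. Among all 27305 promoters of the same length, 0.0806% held an ERSE, 0.0513% an ERSE-II and 0.667% a UPRE core. A match is a description of letters and not a measured binding site. Only exact matches were counted, so an element with a differing base, or one outside this window, would be missed.

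**Figure D1:**
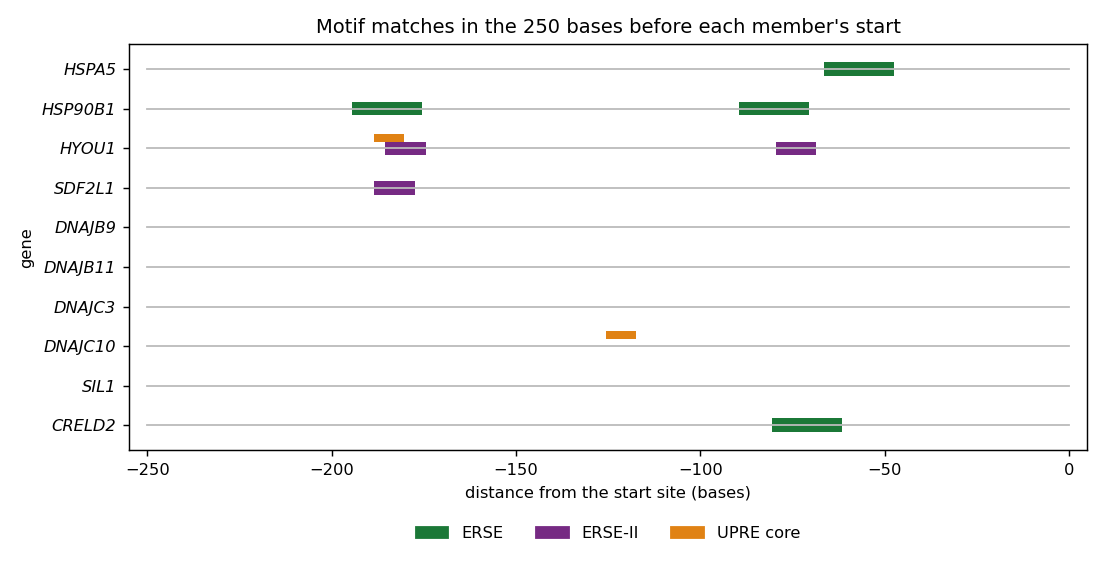
Motif matches in the 250 bases before the start site of each of the 10 members, with distance from the start in bases on the horizontal axis and 1 gene per line; green bars are ERSE matches, purple bars ERSE-II and orange bars UPRE cores, on either strand. HSPA5, HSP90B1 and CRELD2 hold ERSE matches and HYOU1 and SDF2L1 hold ERSE-II matches.

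Values are log2 expression values per probe set as deposited, and a difference of 1 is a doubling. The median over genes was between 5.38 and 5.42 on each array. KL-FL replicate 3 stood apart, with a median correlation of 0.994 with the other arrays, against 0.996 for KL1 replicate 2 and at least 0.997 for the remaining 7. Nothing states that replicates were separate cultures, so every p-value here rests on a spread between arrays that may be technical. Epithelial identity was checked on 9 markers, of which 6 lay above the median of all genes, with KRT8 at a mean of 10.69 and VIL1 lowest at 3.77. The 5 leukocyte markers measured averaged at most 4.07, and PTPRC 2.74. The transfected gene KL averaged 3.19 ± 0.046 in KL-FL and 3.19 ± 0.067 in KL1, against 3.05 ± 0.014 in control (SD, n = 3 each; limma adjusted p = 0.637 and 0.927). Human probes may read the mouse vectors poorly, so this value is a weak check of the labels.

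With KL-FL, all 10 members averaged higher than in control, by log2 differences from 0.014 for SIL1 to 0.31 for DNAJB11 with a median of 0.20, against a median of 0.0099 over all genes. With KL1, all 10 again averaged higher than in control, from 0.053 for DNAJC10 to 0.41 for DNAJB9 with a median of 0.22, against 0.0026 over all genes. Of all genes, 57.3% averaged higher than control with KL-FL and 52.1% with KL1. The members' folds were small, between 1.01 and 1.24 with KL-FL and between 1.04 and 1.33 with KL1. Both comparisons use the same 3 control arrays, so their likeness is no separate evidence. No member passed the limma test over all genes in either comparison, where 1 gene of 17958 did (0.00557% in each), DDIT3, the gene of the stress transcription factor CHOP. At an unadjusted p under 0.05 in limma there were 7 of 10 members with KL-FL, all higher, where 4.88% of all genes were higher and 2.28% lower at that level. With KL1 there were 7 of 10, all higher, where 2.99% of all genes were higher and 2.11% lower. The members were chosen with earlier results of these data known, so their counts beside all genes, here and below, are descriptions.

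Counted by array instead, the KL-FL and control arrays did not overlap in 6 of 10 members, all higher with KL-FL, where 7.13% of all genes lay higher without overlap and 3.25% lower. The KL1 and control arrays did not overlap in 7 of 10, all higher with KL1, where 5.13% of all genes lay higher and 4.34% lower. The members' smallest adjusted p in limma was that of HSP90B1 in both comparisons, 0.408 with KL-FL and 0.478 with KL1. With array weights in limma 6 members passed in KL-FL against control, HSPA5, HSP90B1, HYOU1, SDF2L1, DNAJB11 and DNAJC3, with adjusted p from 0.0231 to 0.0438, but so did 523 genes in all, and 1 array, KL-FL replicate 1, had a weight of 6.76 where the others had 0.265 to 1.35. RNA came from whole cultures, so more transcript per cell and more cells responding cannot be told apart, and the share of cells transfected is not in the labels.

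**Figure D2:**
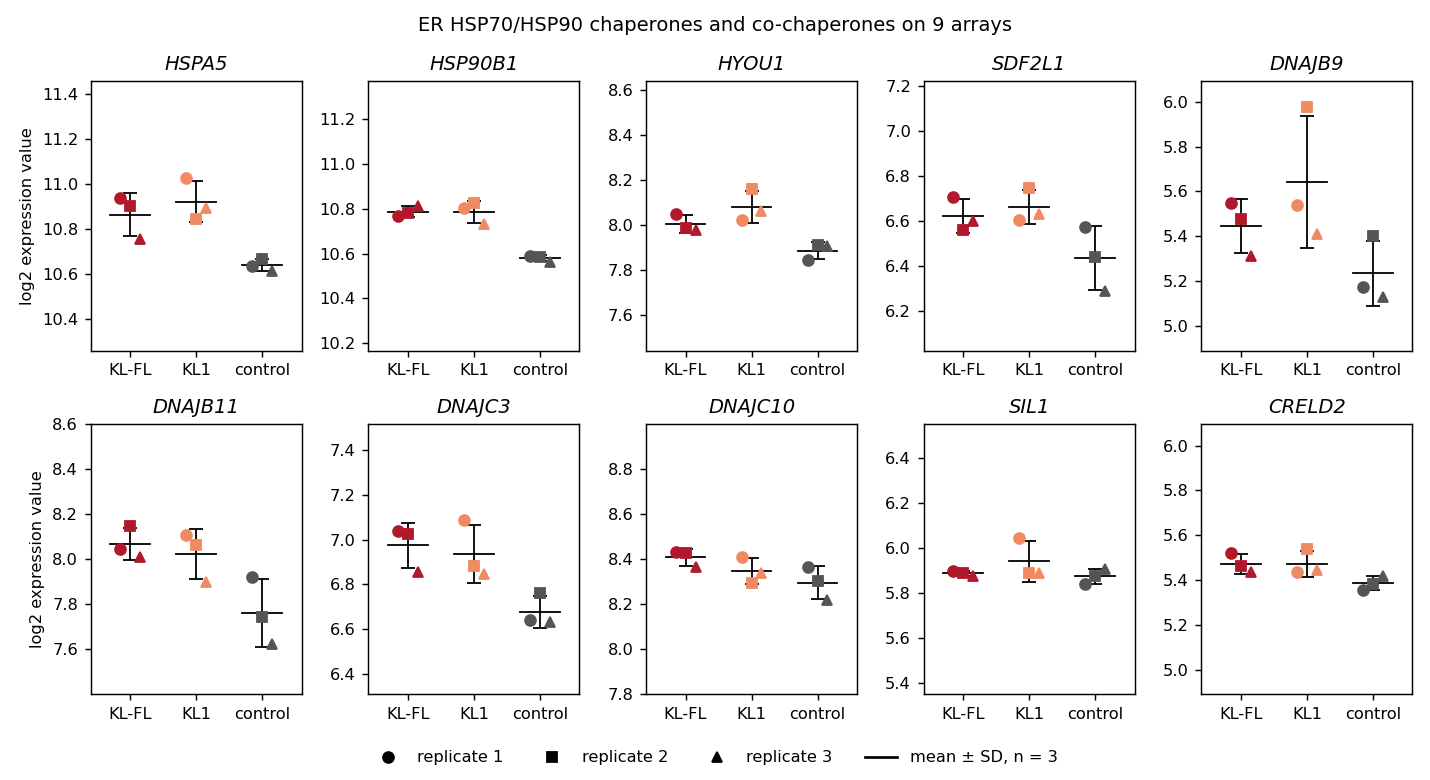
Log2 expression value (vertical axis) of each of the 10 members on each of the 9 arrays, 1 panel per gene with KL-FL, KL1 and control from left to right; symbols are replicates, bars the mean ± SD (n = 3), and every panel spans the same log2 range. HSPA5 and HSP90B1 lie above all controls on all 6 klotho arrays, while SIL1 overlaps control in both groups.

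HSPA5 (probe set 8164165), the BiP gene, read 10.94, 10.90 and 10.75 on the KL-FL arrays and 11.03, 10.85 and 10.89 on the KL1 arrays, against 10.64, 10.67 and 10.61 on the control arrays. All 6 klotho arrays lay above all 3 controls, and KL-FL replicate 3 was the lowest of them. The difference was 0.23 (SE 0.059, 1.17-fold, limma adjusted p = 0.583) for KL-FL and 0.28 (SE 0.059, 1.22-fold, limma adjusted p = 0.821) for KL1. HSP90B1 (probe set 7958130), the GRP94 gene, read 10.77, 10.78 and 10.81 with KL-FL and 10.80, 10.83 and 10.73 with KL1, against 10.59, 10.59 and 10.56 in control. Its arrays were the tightest of the 10 members, with a residual SD of 0.033, below that of 86.4% of genes. The groups were separated by more than their spread, by 0.21 (SE 0.033, 1.15-fold) in each comparison. HSP90B2P, a related pseudogene with a row of its own, differed by -0.00045 (SE 0.037) with KL-FL and by 0.0087 with KL1. Its row did not move with HSP90B1, but its mean of 3.56 is low beside the median of 5.39 over all genes. A row that dim may not respond, so it does not show what the HSP90B1 probes read. A pseudogene of HSPA5, HSPA5P1, is listed in RefSeq and had no row here, and whether the HSPA5 probes also read it was not tested.

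HYOU1 (probe set 7952145), known as GRP170, is a large HSP70 relative that acts on BiP as a nucleotide exchange factor. It read 8.05, 7.99 and 7.98 with KL-FL and 8.02, 8.16 and 8.06 with KL1, against 7.84, 7.91 and 7.90 in control. All 6 klotho arrays were above all controls, by 0.12 (SE 0.043, limma adjusted p = 0.688) with KL-FL and 0.20 (SE 0.043, limma adjusted p = 0.901) with KL1. SIL1 (probe set 8114476), the other exchange factor, averaged 5.89 ± 0.012 with KL-FL and 5.94 ± 0.090 with KL1, against 5.87 ± 0.035 in control (SD, n = 3 each). SIL1 overlapped control in both groups. Its difference was 0.014 (SE 0.045) with KL-FL, a sign that turned to -0.011 under quantile normalization, and 0.067 (SE 0.045) with KL1, which was 0.015 without KL1 replicate 1.

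Among the J-domain proteins, DNAJB11 and DNAJC3 had the largest differences with KL-FL. DNAJB11 (probe set 8084634), known as ERdj3, is a soluble lumenal co-chaperone that binds clients and hands them to BiP. It read 8.05, 8.15 and 8.01 with KL-FL and 8.11, 8.06 and 7.90 with KL1, against 7.92, 7.74 and 7.62 in control. The KL-FL arrays were all above control, while KL1 replicate 3 lay just under control replicate 1. Each KL1 array was above the control array of its own number. The DNAJB11 difference was 0.31 (SE 0.081, limma adjusted p = 0.607) for KL-FL and 0.26 (SE 0.081, limma adjusted p = 0.927) for KL1. For KL1 the SE was 0.037 (limma adjusted p = 0.652) in a fit blocked on replicate number over the KL1 and control arrays. SDF2L1 (probe set 8071559), a lumenal protein found in complex with DNAJB11, read 6.71, 6.56 and 6.60 with KL-FL and 6.60, 6.75 and 6.63 with KL1, against 6.57, 6.44 and 6.29 in control. Control replicate 1 lay inside the KL-FL range, and all KL1 arrays lay above control. The SDF2L1 difference was 0.19 (SE 0.073) with KL-FL and 0.23 (SE 0.073) with KL1. Without control replicate 3, which was the lowest array for both genes, SDF2L1 differed by 0.12 in KL-FL against control and DNAJB11 by 0.24.

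DNAJC3 (probe set 7969651), known as p58IPK, is a lumenal co-chaperone of BiP that was also described as an inhibitor of the kinase PERK. It read 7.04, 7.03 and 6.86 with KL-FL and 7.08, 6.88 and 6.85 with KL1, against 6.64, 6.76 and 6.63 in control. All 6 klotho arrays lay above all controls, as for HSPA5. The DNAJC3 difference was 0.30 (SE 0.074, 1.23-fold, limma adjusted p = 0.583) for KL-FL and 0.26 (SE 0.074, 1.20-fold, limma adjusted p = 0.927) for KL1. DNAJB9 (probe set 8135480), known as ERdj4, is known to bring BiP to the stress sensor IRE1. Its values were 5.55, 5.48 and 5.31 with KL-FL and 5.54, 5.97 and 5.41 with KL1, against 5.17, 5.40 and 5.13 in control. It was the most variable member, with a residual SD of 0.20, above that of 98.7% of genes, and 1 array, KL1 replicate 2, stood well above the others. The DNAJB9 difference was 0.21 (SE 0.14) with KL-FL and 0.41 (SE 0.14) with KL1, or 0.24 with KL1 without that array. Control replicate 2 was likewise the highest control, so part of this spread may be shared by arrays of the same number. A limma fit blocked on replicate number over the KL1 and control arrays was added after seeing the data. It gave DNAJB9 an SE of 0.063 (limma adjusted p = 0.652). DNAJC10 (probe set 8046759), known as ERdj5, reduces disulfides of proteins bound for degradation. It averaged 8.41 ± 0.037 with KL-FL and 8.35 ± 0.058 with KL1, against 8.29 ± 0.075 in control (SD, n = 3 each), and overlapped control in both groups. DNAJC10 differed by 0.11 (SE 0.046) with KL-FL and by 0.053 (SE 0.046) with KL1, values that became 0.073 and 0.014 without control replicate 3.

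CRELD2 (probe set 8073949), an ER protein known to be induced by ER stress, had the smallest differences among members whose arrays did not overlap control. It averaged 5.47 ± 0.043 with KL-FL and 5.47 ± 0.057 with KL1, against 5.39 ± 0.031 in control (SD, n = 3 each). Each difference was 0.086 (SE 0.039), with limma adjusted p of 0.695 and 0.927, and the KL1 one was 0.054 without KL1 replicate 2. Its 3 KL-FL arrays and its 3 KL1 arrays were all above its 3 controls.

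KL-FL replicate 3, the array that stood apart, was below its group mean in 9 of 10 members, the exception being HSP90B1. This was not particular to that array, since KL1 replicate 3 was below its group mean in all 10. The members' mean deviation was -0.053 on KL-FL replicate 3, -0.067 on KL1 replicate 3 and -0.047 on control replicate 3. Without KL-FL replicate 3 the KL-FL differences from control ran from 0.020 for SIL1 to 0.35 for DNAJC3 with a median of 0.20. Then 8 of 10 members did not overlap control, where 17.6% of all genes were higher without overlap among those 2 KL-FL and 3 control arrays. None passed the limma test over all genes without that array either, the smallest adjusted p being 0.267, shared by HSPA5 and HSP90B1.

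Full-length klotho and the KL1 subdomain were then compared with each other, to see whether the chaperone genes told the vectors apart. KL-FL was the lower in 6 of 10 members and the higher in 4, where 54.4% of all genes were higher. The members' median difference was -0.019, against 0.0058 over all genes. The members' count rested on single arrays, since KL-FL was the higher in 1 member without KL1 replicate 3 and in 6 without KL1 replicate 2. No member passed the limma test over all genes, where 0% of genes did, and none reached an unadjusted p under 0.05 in limma, a level at which 3.49% of all genes were higher and 1.55% lower. The arrays of both vectors overlapped in all 10 members, while 4.67% of all genes did not overlap with KL-FL higher and 2.21% with KL-FL lower. DNAJB9 averaged 5.45 ± 0.12 in KL-FL and 5.64 ± 0.30 in KL1 (SD, n = 3 each), a difference of -0.20 with a 95% interval from -0.51 to 0.12, the widest gap with all 9 arrays. Without KL1 replicate 2 it was -0.029, smaller than the -0.096 of HSPA5, and with array weights it was -0.041. HYOU1 differed by -0.076 (95% interval from -0.17 to 0.021) and DNAJC10 by 0.060 (95% interval from -0.046 to 0.16), and without KL1 replicate 2 these were -0.036 and 0.033. HSP90B1 differed by 0.0012, with the narrowest interval, from -0.074 to 0.076, so a difference as large as that of either vector from control lay outside it. For HSPA5 the difference of -0.058 had an interval from -0.19 to 0.075, and without KL-FL replicate 3 it was -0.0034. A p above the threshold does not show that the vectors act alike, and for DNAJB9, SDF2L1, DNAJB11 and DNAJC3 the intervals reached beyond 0.20 in size in at least 1 direction.

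**Figure D3:**
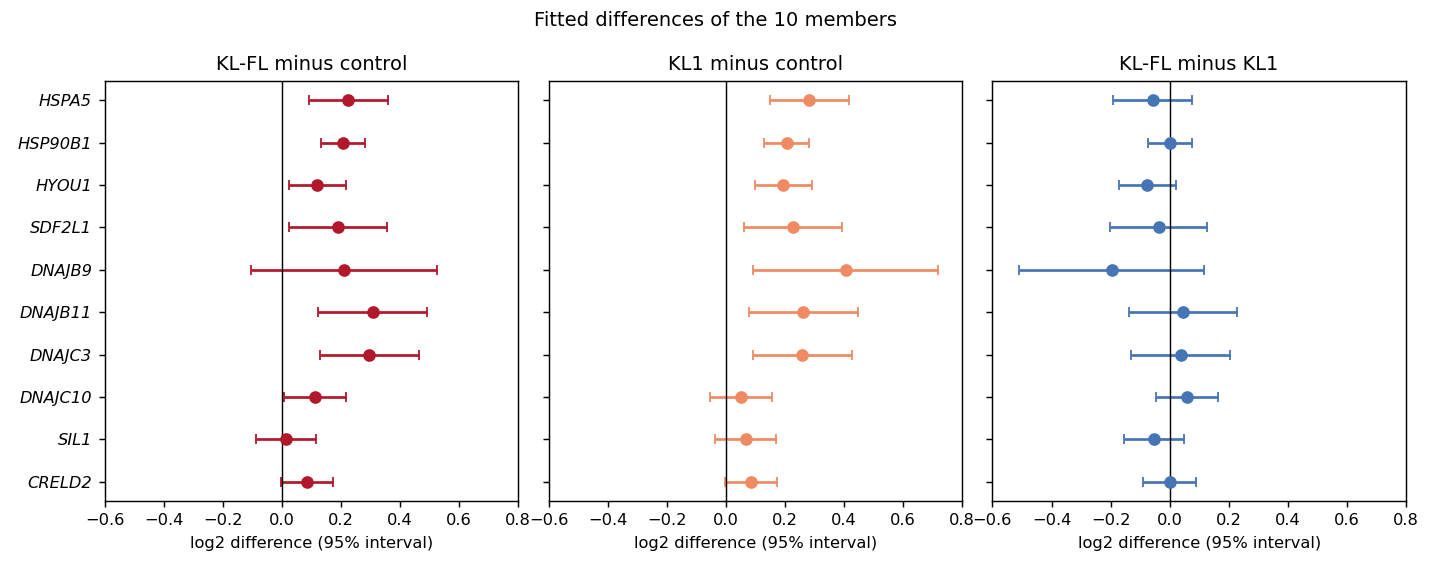
Fitted log2 difference of each member (points) with its 95% interval (bars) for KL-FL and then KL1 against control, and for KL-FL minus KL1, on 1 shared horizontal scale. All 20 differences from control lie right of 0, and all 10 intervals between KL-FL and KL1 include 0.

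Over the values on the 9 arrays, differences between groups included, all 45 pairs of members correlated positively, with a median Pearson r of 0.63. Centred on its own mean over the 9 arrays and averaged over members, the level was 0.091, 0.062 and -0.0037 on the KL-FL arrays and 0.10, 0.12 and 0.011 on the KL1 arrays, against -0.11, -0.098 and -0.17 on the control arrays. Every klotho array was above every control, and the array numbered 3 was the lowest of its group in all 3 groups. Taken as deviations from group means over the 9 arrays, 28 of the 45 member pairs correlated positively, with a median Pearson r of 0.14. HSPA5 deviated together with DNAJC3 (r = 0.92), DNAJC10 (0.71) and SIL1 (0.66), and not with HSP90B1 (-0.25) or HYOU1 (-0.23). Among 8978 genes ranked by this likeness to HSPA5, DNAJC3 stood at 40, DNAJC10 at 1042 and SIL1 at 1458. Many genes outside the members thus deviated with HSPA5 as closely as DNAJC10 and SIL1 did. HSPA5, DNAJB11, DNAJC3, DNAJC10 and SIL1 were highest on KL1 replicate 1 among the KL1 arrays, whereas HSP90B1, HYOU1, SDF2L1, DNAJB9 and CRELD2 were highest on KL1 replicate 2. All genes of an array share its RNA, labelling and normalization, so these correlations are descriptions.

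**Figure D4:**
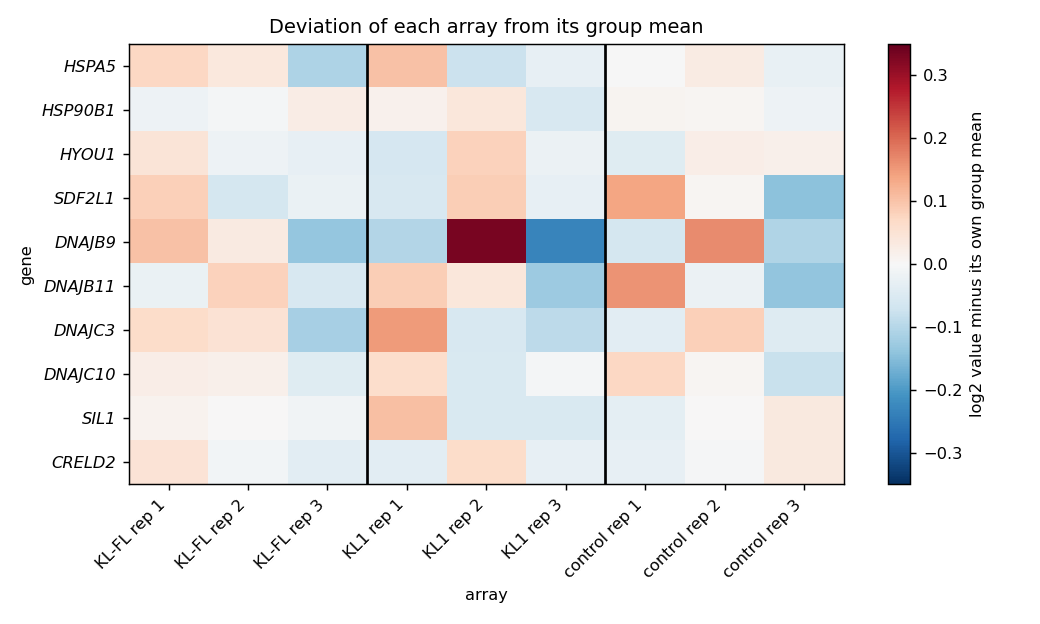
Log2 value minus the mean of its own group, for the 10 members (rows) on the 9 arrays (columns, with KL-FL, KL1 and control separated by lines); red is above the group mean and blue below. KL1 replicate 2 is highest for DNAJB9 at 0.33. KL-FL replicate 3 is below its group mean in every member but HSP90B1, and KL1 replicate 3 in all 10.

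Over the 9 arrays as measured, the 5 other genes most like HSPA5 among the brighter genes were SYAP1 (Pearson r 0.96), HERPUD1 (0.96), WDR43 (0.95), SGMS2 (0.92) and ERP44 (0.91). HERPUD1 is a component of ER-associated degradation and ERP44 a lumenal thioredoxin-family protein that retains clients. Of the members, DNAJC3 ranked 4 among 8978 genes in this likeness (r = 0.94), HSP90B1 48 (r = 0.81) and DNAJB11 62 (r = 0.78), and the remaining 6 ranked between 157 and 461. As deviations from group means, the 5 most like HSPA5 were C5orf34, CDC42EP4, ZNF384, STEAP2 and DTL, with r from 0.96 to 0.97, and HERPUD1 and ERP44 were not among them.

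Partners of the system outside the 10 members had medians between those of the members and of all genes. Of 17 listed J-proteins, paralogs and cofactors of BiP and GRP94, 14 were measured and 11 were higher with KL-FL (median 0.089) and 13 with KL1 (median 0.065), with 0 past the limma test over all genes in either comparison. SEC63, the J-protein of the translocon, differed by 0.12 (SE 0.042) with KL-FL and 0.088 (SE 0.042) with KL1. CRELD1, the paralog of CRELD2, differed by 0.16 (SE 0.052) with KL-FL and 0.097 (SE 0.052) with KL1. DNAJB14, a J-protein of the ER membrane, differed by 0.13 (SE 0.049) with KL-FL but by 0.0028 (SE 0.049) with KL1. With KL1 the smallest p-values belonged to MANF, a secreted ER protein that binds BiP, at 0.22 (SE 0.071), to SLC35B1, which brings ATP into the ER, at 0.20 (SE 0.076), and to FICD, which AMPylates BiP, at 0.20 (SE 0.094). CNPY3, a cofactor of GRP94, went the other way at -0.17 (SE 0.081) with KL-FL.

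The HSP70 and HSP90 families outside the ER were spread on both sides of 0. Of 21 listed cytosolic and mitochondrial counterparts 19 were measured, and 8 were higher and 11 lower in each comparison with control, with medians of -0.025 for KL-FL and -0.020 for KL1 and 0 past the limma test. HSPA8, the constitutive cytosolic HSP70, differed by 0.037 (SE 0.038) with KL1. With KL-FL none of these genes separated from control on all arrays, and with KL1 only BAG3, a partner of stress-induced HSP70, did, at -0.12 (SE 0.046).

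Regulators and other targets of the response gave a mixed picture. Of 14 sensors and transcription factors measured, 7 were higher with KL-FL and 9 with KL1, with medians of 0.016 and 0.019, and 1 passed in each comparison. That gene, DDIT3, rose by 0.65 (SE 0.059, limma adjusted p = 0.0348) with KL-FL and by 0.78 (SE 0.059, limma adjusted p = 0.00687) with KL1, while a limma fit blocked on replicate number called 0 genes in either comparison, as did fits without control replicate 1, 2 or 3. ATF3 differed by 0.22 (SE 0.051) with KL-FL and 0.32 (SE 0.051) with KL1, and lay above all controls in both. The PERK gene EIF2AK3 differed by 0.13 (SE 0.042) with KL-FL and 0.078 (SE 0.042) with KL1. With KL-FL 4 of the 14 lay above control without overlap and 2 below, against 7.13% and 3.25% of all genes. With KL1 the counts were 3 and 0, against 5.13% and 4.34% of all genes. The 2 below with KL-FL were ATF4 at -0.098 (SE 0.049) and NFYA at -0.047 (SE 0.033). ATF6 differed by -0.0073 (SE 0.036) with KL-FL and 0.0014 (SE 0.036) with KL1. XBP1 differed by 0.096 (SE 0.091) and 0.15 (SE 0.091) and overlapped control in both. Of 18 other known ATF6 or XBP1 targets, 16 were higher with KL-FL (median 0.050) and 14 with KL1 (median 0.079), with 0 past the test. The smallest p-values with KL-FL belonged to HERPUD1 at 0.45 (SE 0.073), EDEM1 at 0.34 (SE 0.075) and SEL1L at 0.24 (SE 0.056), genes of ER-associated degradation. With KL1 they belonged to HERPUD1 at 0.50 (SE 0.073), SEL1L at 0.36 (SE 0.056) and the foldase PDIA4 at 0.25 (SE 0.065). HERPUD1 exceeded every member in both comparisons. In each comparison 5 of the 18 targets lay above control without overlap and 1 below, beside the same shares of all genes.

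**Figure D5:**
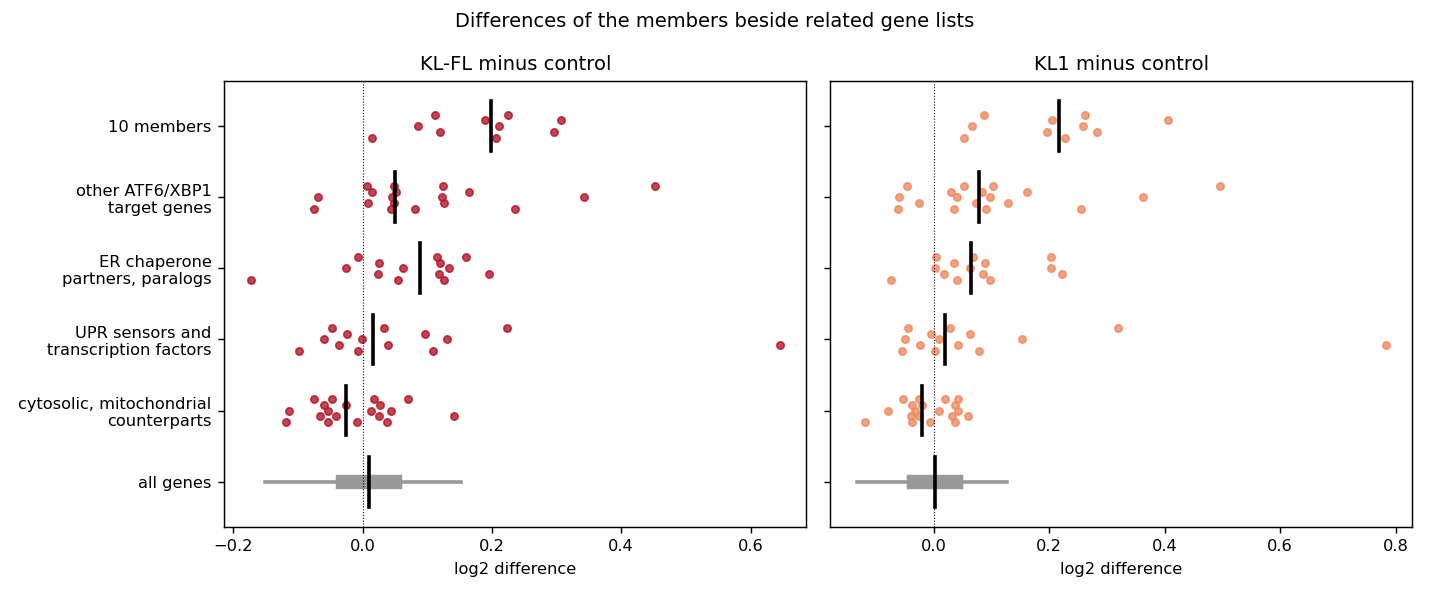
Log2 differences from control (horizontal axis) of the 10 members and of 4 related gene lists, with KL-FL on the left and KL1 on the right; each point is a gene, each black bar a median, and for all 17958 genes the thick and thin grey bars span the middle 50% and 95%. The members' medians of 0.20 and 0.22 lie right of those of the 4 lists, and the point farthest right is DDIT3. HERPUD1, of the other ATF6/XBP1 target genes, lies right of every member in both panels.

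The differences were also set beside the promoter elements shown above. The 5 members with an exact ERSE or ERSE-II match had a median difference of 0.19 with KL-FL and 0.21 with KL1. The 5 without such a match had 0.21 and 0.26. In the KL-FL comparison the ranges overlapped, from 0.086 to 0.23 with a match and from 0.014 to 0.31 without. DNAJB11 and DNAJC3, the largest differences with KL-FL, had no exact match in the 250 bases searched. Members without an exact match may still hold an altered or more distant element, and whether the differences depend on such elements was not tested. Of the related lists, promoters were available for 16 of 17 partners, 14 of 15 regulators, 15 of 18 other targets and all 21 counterparts. Among these, ERSE matches stood in the promoters of FICD, XBP1, CALR, CANX and ERO1B and an ERSE-II match in that of HERPUD1.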

How the data were processed

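RNA from 9 samples of HCT 116 cells was read on a whole-transcript human array from 100 ng of total RNA, per the labels' protocols. The authors deposited 1 table of log2 values for 33297 probe sets. Partek 6.6 was used, per the submitters' processing notes, and how it corrected background, normalized and summarised probes is not given in the sources used here. The values span 1.79 to 12.4, from which the log base was inferred. The table has no detection calls, and the number of arrays limits the precision.

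Probe sets were named through the platform's annotation: 19181 named 1 gene, 2055 several and 12061 none here. Gene IDs were looked up in RefSeq, where 38 had no match. The brightest row stood for each of 17958 genes.

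The 3 groups were fitted in 1 model with limma 3.58.1 in R 4.3.3 (6 residual degrees of freedom), with two-sided p-values adjusted by Benjamini-Hochberg over all genes at 0.05, after the model was tested on simulated data. Same-numbered arrays of KL1 and control deviated together (correlations 0.113 to 0.322, all 3 over 0.1), so their numbers may pair them. Same-numbered correlations of KL-FL with control were at most 0.0974 and with KL1 at most 0.0121. Between different numbers, KL-FL replicate 3 and KL1 replicate 2 reached 0.109, while KL1 with control was at most 0.0779. Passing 0.1 alone therefore does not show pairing.

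The members and lists were chosen with earlier results of these data known. Named are the 10 members, KL, DDIT3, the 5 genes most correlated with HSPA5 among genes at or above the median level, and up to 3 genes per list with the smallest p. HSPA8, CNPY3, ATF4, NFYA, ATF6, XBP1 and the pseudogenes were chosen after their values were seen. Alternatives were quantile normalization, median centring, replicate block, array weights, unmoderated variance, the 6 arrays compared, a filter on dim genes, every probe set and leaving out each array.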

Additional observations from a re-analysis of the deposited data

How the results depend on the processing

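In KL1 against control all 10 members kept their direction under all alternatives tried and 0 passed. In KL-FL against control they kept it too, except SIL1, at -0.011 under quantile normalization, -0.020 with arrays centred on their medians and between -0.0035 (without control replicate 1) and 0.031 (without control replicate 3) over arrays left out. Array weights took the count of members past the threshold to 6 and that of all genes to 523 (134 lower). The count of all genes was 0 with the replicate block, with each gene's own variance, on the 6 arrays compared and with the block on those 6 arrays (added after seeing the data), and 0 to 1 when arrays were left out. In KL1 against control that count was 2 with array weights, 0 with the replicate block, with own variances and with the block on the 6 arrays, and 0 whenever a KL1 or control array was left out. The paired fits changed no call of a member. The members' median difference ran from 0.14 (without control replicate 3) to 0.20 for KL-FL and from 0.18 to 0.24 for KL1 over arrays left out.

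Between KL-FL and KL1, 1 gene passed with array weights and 1 with own variances. The members' median of -0.019 turned to 0.023 with array weights, and ran from -0.041 to 0.0071 over arrays left out, the highest without KL1 replicate 2. HSP90B1 (0.0012) turned to -0.0070 under quantile normalization, -0.028 with centring and -0.0032 with weights, and HSPA5, SDF2L1 and CRELD2 turned to 0.00072, 0.044 and 0.050 with weights. Over arrays left out HSP90B1 ran from -0.026 to 0.021, SDF2L1 from -0.079 to 0.0055, DNAJB11 from -0.018 to 0.089, DNAJC3 from -0.0085 to 0.11 and CRELD2 from -0.024 to 0.032. Leaving out 1 array moved the difference by over 1.5 times, or turned its sign, in all 10 members between the vectors. Against control it did so in SIL1, SDF2L1 and DNAJC10 with KL-FL and in DNAJC10, SIL1, DNAJB9 and CRELD2 with KL1. There DNAJB9 was 0.24 without KL1 replicate 2, against 0.41 with all arrays. Causes were not tested. In KL-FL against control the median of all genes was 0.0099, -0.012 under quantile normalization and -0.024 with centring, beside members' medians of 0.20, 0.17 and 0.16. The share of all genes that were higher was 57.3%, 41.5% and 33.9% in these settings.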
